A study of Mus musculus with 6 samples.

Results

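Fos, Fosb, Jun, Junb, Egr1, Egr2, Atf3, Ier2, Hspa1a and Hspa1b are 10 of the 32285 genes counted in each library, grouped here as a readout of stress from dissociation. They were chosen by symbol and not by a rule on their values, though with earlier results of these data known, and all 10 symbols were found. Fos to Ier2 are immediate early genes, which are transcribed within minutes of a signal without new protein synthesis and encode mostly transcription factors whose transcripts decay fast. Hspa1a and Hspa1b encode stress-inducible Hsp70 chaperones, which bind unfolded protein and are switched on by heat shock factor. Both sets are known to be induced while a tissue is taken apart with enzymes, and in the intestine immediate early genes also respond to growth factor and injury signals.

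Single-cell RNA sequencing was performed on epithelial cells of ileal crypts, which were released with TrypLE Express and sorted on EpCAM. The mice, sex- and age-matched on the C57BL/6J background, carried floxed Fpr2 alleles alone (Fpr2f/f, given as WT in the genotype label, 3 libraries) or with Villin-Cre (Fpr2VKO, 3 libraries), which deletes Fpr2 in intestinal epithelium. The study found Fpr2 mRNA lowered in intestine and unaltered in liver and spleen. No treatment is given in the labels. The study used 3 mice per group but the labels do not tie libraries to animals, so the p-values below measure the spread between these libraries.

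Barcodes with at least 1000 UMIs (unique molecular identifiers, each a captured transcript), at least 500 genes and at most 20% mitochondrial UMIs were taken as cells, 17104 in all and 1868 to 4722 per library. Their median depth was 3033 to 4612 UMIs in Fpr2f/f and 6358 to 6728.5 UMIs in Fpr2VKO, with no overlap. Libraries held 90142126 to 189516114 UMIs over all barcodes, 7.25% to 13.1% of them in barcodes under 100 UMIs, called free RNA below. Fpr2 had 0 UMIs in the cells of all libraries and could not serve to check the labels, and pairs of libraries shared 0 to 23 cell barcodes. Cells were clustered without the members and related stress genes and named by markers as stem-like (596 cells), transit-amplifying-like (2729), enterocyte-like (1404), Paneth-like (1050), goblet-like (1909), enteroendocrine-like (441), tuft-like (351) and immune-like (293), while 8331 cells in 14 clusters stayed unnamed. Summed fibroblast markers (4 genes) reached at most 0.713 and endothelial markers (3 genes) at most 5.92 CPM (UMIs of a gene per 1000000 UMIs) in a library, while immune markers (8 genes) had 215 to 1038 CPM in Fpr2VKO and 376 to 515 CPM in Fpr2f/f. Summed stem cell markers (8 genes) had 2109 to 2277 CPM in Fpr2VKO and 938 to 1278 CPM in Fpr2f/f, with no overlap.

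Promoter windows from RefSeq (GRCm38.p6, 250 bases before to 50 after the start site) were found for 8 of the 10 members, and the 150 bases before the start site are shown for Hspa1a and Hspa1b, whose near-identity bears on how their UMIs are read, and for Jun, Fos and Egr2, on which the comparisons below turn. Capitals mark matches to the motifs searched on both strands: the CArG box of serum response factor, the cAMP response element TGACGTCA, the AP-1 site TGANTCA, the heat shock element core GAANNTTC and the TATA box TATAAA. The windows lie at chr17:34972157-34972306 (Hspa1a, minus strand), chr17:34959239-34959388 (Hspa1b, minus strand), chr4:95052223-95052372 (Jun, minus strand), chr12:85473740-85473889 (Fos, plus strand) and chr10:67537719-67537868 (Egr2, plus strand, 1 of its 5 start sites).
Hspa1a: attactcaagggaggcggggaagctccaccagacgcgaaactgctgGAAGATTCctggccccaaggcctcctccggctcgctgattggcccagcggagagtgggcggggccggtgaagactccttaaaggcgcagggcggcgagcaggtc
Hspa1b: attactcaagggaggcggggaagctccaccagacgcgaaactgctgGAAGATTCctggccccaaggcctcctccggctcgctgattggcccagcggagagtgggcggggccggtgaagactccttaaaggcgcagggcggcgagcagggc
Jun: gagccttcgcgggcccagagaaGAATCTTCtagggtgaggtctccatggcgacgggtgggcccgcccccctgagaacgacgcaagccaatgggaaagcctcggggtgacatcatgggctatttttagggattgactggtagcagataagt
Fos: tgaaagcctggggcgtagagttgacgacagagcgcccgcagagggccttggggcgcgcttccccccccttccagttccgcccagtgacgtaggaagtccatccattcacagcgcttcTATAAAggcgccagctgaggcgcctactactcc
Egr2: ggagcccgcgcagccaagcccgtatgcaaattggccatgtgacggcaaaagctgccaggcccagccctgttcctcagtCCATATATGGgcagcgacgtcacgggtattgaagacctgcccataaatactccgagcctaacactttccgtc

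The heat shock element core lay at positions -104 to -97 from the start site in both Hspa1a and Hspa1b and at -128 to -121 in Jun, and 7.86% of all 32851 windows held it. A CArG box lay at -72 to -63 of the Egr2 window shown, against 1.63% of all windows, and a TATA box at -33 to -28 of Fos, against 13.6%. No member's window held TGACGTCA (1.79% of all windows) or TGANTCA (7.81%). The Hspa1a and Hspa1b windows matched at 296 of 300 bases, and their transcripts at 94.4% of aligned bases. Of all stretches of 91 bases, 49.1% of those in the Hspa1a transcript also occurred in Hspa1b, but 0% of those in its last 500 bases, so the split of UMIs between these genes is uncertain and their sum is also given.

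All 10 members were detected in every library, and together took 0.143% to 0.206% of the UMIs in cells. Fos, a subunit of the AP-1 dimer, had 563, 573 and 537 CPM in Fpr2f/f replicates 1 to 3 and 669, 732 and 479 CPM in Fpr2VKO replicates 1 to 3. The groups overlapped, since Fpr2VKO replicate 3 was the lowest of all 6 libraries. Jun, its usual partner, had 225, 364 and 252 CPM in Fpr2f/f and 301, 242 and 201.1 CPM in Fpr2VKO. Fpr2f/f replicate 2 was the highest library for Jun, and it was the highest for Fosb, Egr1 and Atf3 too. Atf3, a stress-induced bZIP factor, had 164, 342 and 209 CPM in Fpr2f/f and 214, 215 and 171 CPM in Fpr2VKO. Hspa1b had 71.9, 31.1 and 64.6 CPM in Fpr2f/f and 45.7, 38.7 and 51.6 CPM in Fpr2VKO. Here Fpr2f/f replicate 2 was the lowest library, and the spread within Fpr2f/f covered all of Fpr2VKO. Egr2, a zinc finger factor of the early growth response family, had 9.12, 10.4 and 8.94 CPM in Fpr2f/f and 14.9, 16.4 and 11.04 CPM in Fpr2VKO. It was the only one of the 10 members whose groups did not overlap. The share of all genes without overlap was not counted, and full separation of 3 libraries from 3 gives an exact permutation p of only 0.1. The lack of overlap is therefore not read as a trait of Egr2.

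**Figure D1:**
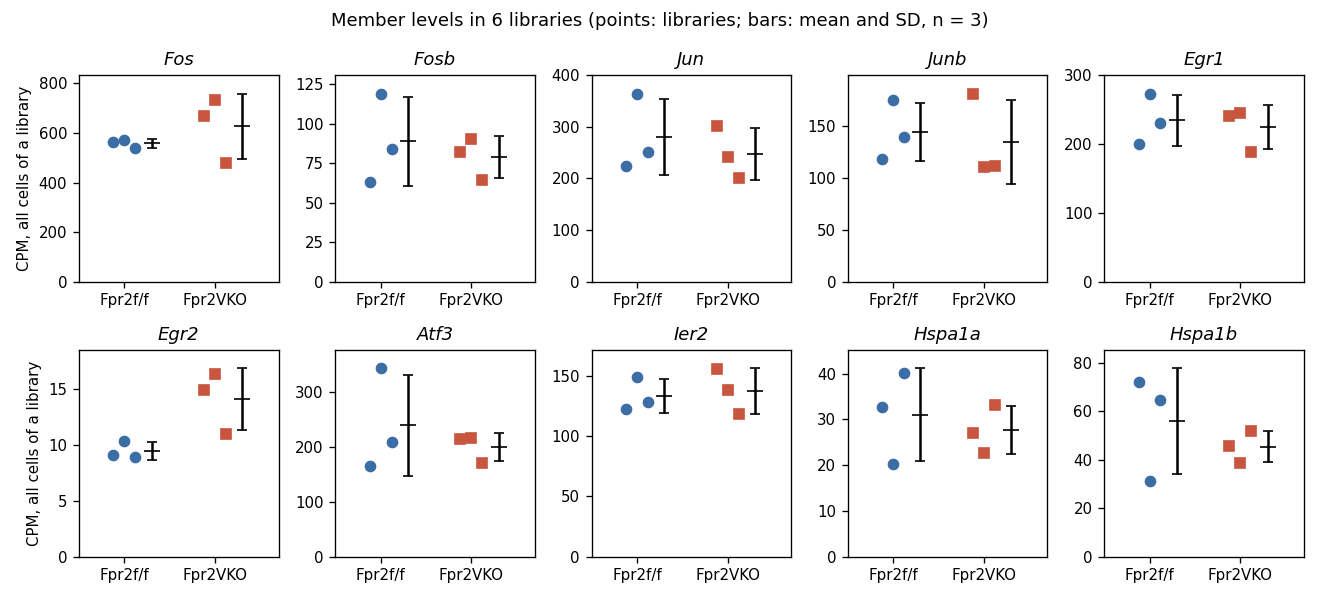
Level of each member over all cells, in CPM on linear axes from 0; circles are Fpr2f/f and squares Fpr2VKO libraries, with the mean and SD of each group beside them (n = 3). Egr2 was at 8.94 to 10.4 against 11.04 to 16.4 CPM, and the share of all genes without overlap was not counted.

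Whether loss of Fpr2 in the epithelium went with a changed stress readout was asked over all cells first. By edgeR's quasi-likelihood test with Benjamini-Hochberg adjustment, 0 of 10 members differed, where 3 of 16917 genes did (0.0177%). An unadjusted p under 0.05 was found for 1 member, and for 1430 of the 16917 genes. DESeq2 also called 0 members. That 1 member was Egr2, with a log2 difference of Fpr2VKO from Fpr2f/f of 0.62 (SE 0.17, adjusted p = 0.412). Fos was at 0.22 (SE 0.17, adjusted p = 0.757), Jun at -0.15 (SE 0.23, adjusted p = 0.872) and Hspa1b at -0.24 (SE 0.27, adjusted p = 0.835). The other 6 members lay between -0.23 for Atf3 and 0.08 for Ier2, a nuclear protein of the early response. Stem-like cells gave 10.2% to 12.01% of the UMIs in Fpr2VKO and 4.51% to 5.58% in Fpr2f/f, unnamed clusters gave 23.6% to 34.1% and 38.0% to 42.0%, and the part of this make-up in the differences, that of Egr2 included, was not tested. Cells of Fpr2VKO libraries also had the higher median depth, and the part of depth in the differences between the groups was not tested. Sums over cells cannot tell fewer expressing cells from less RNA per cell.

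The limit on mitochondrial UMIs changed this. With 10% in place of 20%, Egr2 was called at 1.33 (SE 0.14, adjusted p = 0.00213), where 26 of 13615 genes were (0.191%), and all 8 immediate early members had positive differences, from 0.57 for Jun upward, with Hspa1a at -0.49 and Hspa1b at -0.54. Paneth-like cells gave 42.4% to 62.1% of the UMIs in cells under 10% in Fpr2VKO and 16.8% to 41.3% in Fpr2f/f, and their part in this result was not tested. With no filter on low counts Egr2 also passed (0.63, adjusted p = 0.0492), where 0.31% of all genes did.

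The share of cells with a UMI was compared after thinning every cell to 1000 UMIs. Fos was found in 37.1% ± 1.44 of Fpr2f/f and 36.8% ± 4.35 of Fpr2VKO cells (mean ± SD, n = 3 libraries each, exact two-sided permutation test, p = 1, adjusted p = 1 over 10 members). Fosb, at 10.2% ± 1.94 and 8.13% ± 1.75, gave the lowest p of the 10 (exact permutation test, p = 0.2, adjusted p = 0.6), and 3 libraries against 3 cannot go below 0.1. Any of the 8 immediate early members was found in 62.1% to 81.5% of thinned cells per library, where 1000 UMIs drawn from free RNA would give 65.9% to 82.5%. Hspa1a or Hspa1b was found in 3.54% to 6.06%, where free RNA would give 4.39% to 10.4%, so neither range lay above that of free RNA alone. Fos by itself was found in 31.75% to 39.35%, above the 23.4% to 29.9% that free RNA would give. That range lay below the 40.2% to 52.4% of free RNA with mitochondrial UMIs left out. A share of cells does not measure UMIs per cell, so these shares do not set levels in cells against free RNA.

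Levels by class are a description, since the classes come from clusters of the same cells. Fos was highest in goblet-like cells, the mucus-secreting lineage, at 1694 to 1994 CPM (mean 1838 ± 108, SD over 6 libraries), and then in the hormone-secreting enteroendocrine-like cells at 1193 to 1686 CPM. These classes did not overlap with each other or with the next, immune-like cells at 398 to 796 CPM. Paneth-like, stem-like, enterocyte-like and unnamed cells followed with overlapping ranges, and neighbours in that order kept their rank in 3 or 4 of 6 libraries. Tuft-like cells, which sense the gut lumen, came last at 93.9 to 217 CPM, below transit-amplifying-like cells (226 to 361 CPM) with no overlap.

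Secretory classes led for most other immediate early members. Fosb, a further Fos family subunit, had 211 to 342 CPM in goblet-like, 134 to 317 CPM in enteroendocrine-like and 146 to 231 CPM in Paneth-like cells, and at most 88.3 CPM in every other class. Atf3 had 518 to 635 CPM in goblet-like and 310 to 440 CPM in Paneth-like cells, with no overlap. Jun was highest in enteroendocrine-like (371 to 962 CPM) and goblet-like cells (496 to 600 CPM), which overlapped, with enteroendocrine-like cells above in 5 of 6 libraries. Egr1, the best known early growth response factor, was at 420 to 656 CPM in enteroendocrine-like and 451 to 557 CPM in goblet-like cells, and Ier2 at 137 to 359 and 244 to 292 CPM. For Egr1 and Ier2 each of these classes was the higher in 3 of 6 libraries, so no order can be given. Egr2 had 20.3 to 51.8 CPM in enteroendocrine-like, 17.7 to 42.5 CPM in Paneth-like and 10.98 to 24.5 CPM in goblet-like cells, neighbours that overlapped.

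Junb and the heat shock members had other orders. Junb, an AP-1 subunit known from activated lymphocytes, was highest in immune-like cells at 501 to 1116 CPM, with no overlap with enteroendocrine-like cells (178 to 364 CPM), and lowest in stem-like cells at 43.9 to 75.7 CPM. Hspa1b was highest in the absorptive enterocyte-like cells at 50.8 to 165 CPM, above the unnamed clusters in 6 of 6 libraries, and lowest in Paneth-like (3.49 to 16.1 CPM) and immune-like cells (0 to 6.45 CPM). Hspa1a had the same ends, 30.4 to 110 CPM in enterocyte-like, 2.62 to 7.78 CPM in Paneth-like and 0 to 3.03 CPM in immune-like cells. The sum of both was 81.2 to 275 CPM in enterocyte-like and 6.97 to 23.0 CPM in Paneth-like cells, so Paneth-like cells were among the highest for Fosb, Atf3 and Egr2 and next to lowest for Hsp70.

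**Figure D2:**
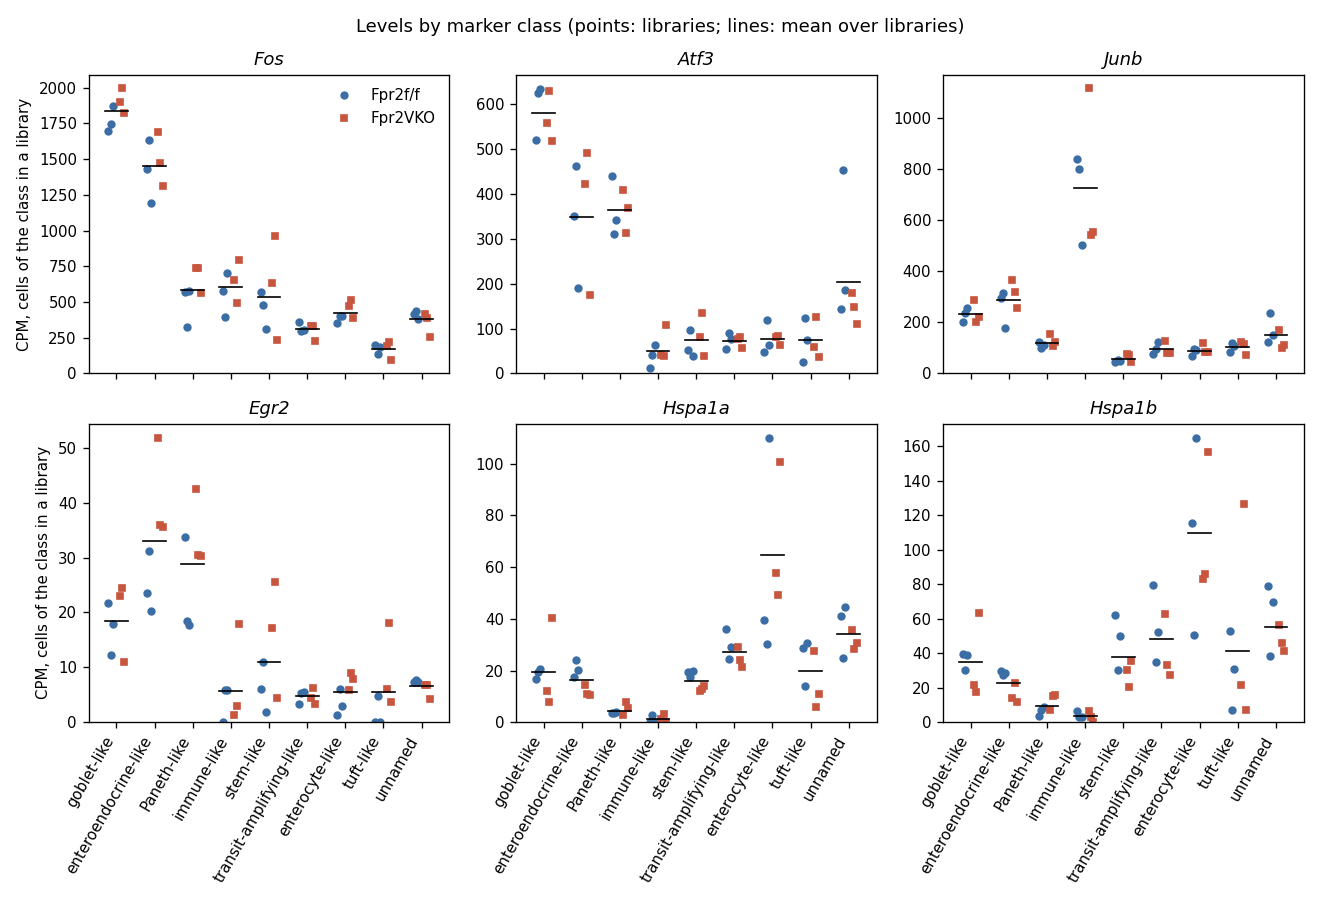
Levels of 6 members by marker class, in CPM on linear axes from 0; circles are Fpr2f/f libraries, squares Fpr2VKO libraries and lines the mean over 6 libraries. Fos and Atf3 are highest in goblet-like, Junb in immune-like, Egr2 in enteroendocrine-like and Hspa1a and Hspa1b in enterocyte-like cells.

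Free RNA puts UMIs into cells that do not express a gene, so shares of thinned cells were set beside the share that 1000 UMIs of a library's free RNA would give. Mitochondrial UMIs made 42.4% to 52.2% of free RNA and at most 20% of a cell, so that share was also computed without them, which is the higher background. For Fos free RNA would give 23.4% to 29.9%, or 40.2% to 52.4% without mitochondrial UMIs, and 49.1% to 65.6% of goblet-like cells held a UMI, above both values in 6 of 6 libraries, although the ranges overlap with the higher background. In tuft-like cells the share was 6.90% to 19.6%, below both. For Junb free RNA would give 12.7% to 19.6%, or 23.0% to 33.4%, while 41.5% to 63.5% of immune-like cells held a UMI, above both, and 3.06% to 8.33% of stem-like cells, below both. For Hspa1b free RNA would give 2.42% to 5.54%, or 4.75% to 10.2%. Enterocyte-like cells, at 3.54% to 8.66%, were above the lower background in 6 of 6 libraries and above the higher in 2 of 6, so their Hspa1b share is not set apart from background either. The mean Hspa1b share of the other 7 named classes and the unnamed clusters lay below both. Both values stand for barcodes of free RNA alone, and the part of free RNA in the UMIs of cells was not tested.

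Within classes, 0 of the members tested differed between the groups in any of the 8 named classes or the unnamed clusters (10 members tested, but 7 in immune-like and 6 in tuft-like cells). Of all genes tested, 0.289% were called in goblet-like, 0.0835% in Paneth-like, 0.061% in transit-amplifying-like and 0.0284% in enterocyte-like cells. The shares were 0.0224% for tuft-like, 0.0213% for enteroendocrine-like and 0.00966% for stem-like cells, 0.00726% for the unnamed clusters, and 0% for immune-like cells, where edgeR called 0 of 5063 genes, 191 had an unadjusted p under 0.05 and DESeq2 called 0. In stem-like cells all 8 immediate early members were higher in Fpr2VKO and both heat shock members lower, and in the unnamed clusters all 10 members were lower. The other classes, Paneth-like cells apart, had members in both directions, and directions were not tested as a set. Paneth-like cells came nearest, with all 10 members higher and 7 at an unadjusted p under 0.05, where 719 of 9576 genes were. Fos there had 567, 322 and 576 CPM in Fpr2f/f and 736, 738 and 560 CPM in Fpr2VKO, a log2 difference of 0.65 (SE 0.15, adjusted p = 0.073). Egr2 there had 33.7, 18.4 and 17.7 CPM in Fpr2f/f and 42.5, 30.5 and 30.3 CPM in Fpr2VKO, a difference of 0.75 (SE 0.17, adjusted p = 0.073). Groups overlapped for both genes, through Fpr2VKO replicate 3 for Fos and Fpr2f/f replicate 1 for Egr2. With no filter on low counts Fos (0.69), Egr2 (0.79) and Hspa1b (1.00) were called in Paneth-like cells, where 0.175% of all genes were. These members were also called with the replicate block, where 0.337% of genes were. Clusters made without alignment of the libraries gave Egr2 (0.89) and Fos (0.70), with 0.297% of genes called. With no filter Egr1 (-0.65) was also called in the unnamed clusters, for which the share of all genes is not given here. Without Fpr2VKO replicate 3 Hspa1b (-0.89) was called in goblet-like cells, where 0.15% of genes were. In Paneth-like cells, library sizes alone in place of TMM factors moved the median of all genes from -0.01 to -0.11. Fos was then at 0.47 and Egr2 at 0.62 in Paneth-like cells (adjusted p = 0.999 for both). Without Fpr2f/f replicate 1 Egr2 passed in Paneth-like cells (0.88, adjusted p = 0.0141), where 0.412% of genes did. Without Fpr2f/f replicate 2 Egr2 (0.87, adjusted p = 0.0422) and Ier2 (0.63, adjusted p = 0.0171) passed in Paneth-like cells, where 0.225% of genes did.

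Depth was compared within libraries, cells of at least 5000 UMIs against shallower ones. Of 17703 genes 63.4% were called, 32.7% higher and 30.6% lower in deep cells, and of the members 3 were higher and 6 lower, so a call by itself says little here. Jun had 157, 286 and 194 CPM in deep and 621, 799 and 617 CPM in shallow Fpr2f/f cells, and 260, 218 and 177 CPM in deep and 810, 534 and 493 CPM in shallow Fpr2VKO cells. Shallow cells were higher in all 6 libraries with no overlap, and the log2 difference of deep from shallow cells was -1.32 (SE 0.09, adjusted p = 1.62e-09). Hspa1b went the other way in all 6 libraries, with 32.6 to 79.6 CPM in deep and 22.5 to 37.1 CPM in shallow cells (1.13, SE 0.11, adjusted p = 3.13e-07), as did Hspa1a (0.84).

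Junb (-1.28), Atf3 (-1.13), Egr1 (-0.70), Ier2 (-0.49) and Fosb (-0.42) were lower in deep cells, each in 6 of 6 libraries by CPM. Fos was called higher by 0.16 (SE 0.07, adjusted p = 0.0396) with TMM factors, but by CPM it was lower in 5 of 6 libraries, and library sizes alone gave -0.12 (adjusted p = 0.151). Egr2 was not called (0.06), and also turned with library sizes alone, to -0.21. That scaling moved the median of all genes from -0.06 to -0.34 and the calls from 5793 higher and 5424 lower to 3636 and 7955. Other directions were the same under both scalings. No member's depth effect differed between the groups, where 2 genes did (0.0113%).

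Classes differed in the size and direction of the depth effect, which was not tested between them. Depth also went with cluster within some classes. Transit-amplifying-like clusters had medians of 38282, 3759.5, 3247 and 2279 UMIs, and goblet-like clusters 23506, 22499, 3664.5 and 2422.5. Enterocyte-like clusters had medians of 30230, 4397 and 4253 UMIs, and Paneth-like clusters 19646 and 19272. The unnamed clusters had medians from 2469 UMIs (leading genes Gm11335, Gm48099 and Edn1) to 31422 UMIs (Mcm4, Mcm6 and Uhrf1). Depth thus went with unlike clusters there too. The part of cluster in these depth differences was not tested. In transit-amplifying-like cells, the cycling progeny of stem cells, all 8 immediate early members were lower in deep cells, from -1.10 for Fos to -2.49 for Atf3, and Hspa1a (0.44) and Hspa1b (0.93) were higher, where 51.3% of genes were called, 25.7% higher and 25.6% lower. Atf3 in that class was at 24.3 to 66.0 CPM in deep and 223 to 328 CPM in shallow cells, with no overlap. The share of thinned cells of that class with a UMI was on average 12.4% for Atf3, where free RNA would give 16.9%, or 29.7% without mitochondrial UMIs, and 31.1% for Fos, where it would give 27.5% or 46.2%. All 8 immediate early members lay below the higher background there, and the part of free RNA in these depth differences was not tested. The unnamed clusters gave the same 10 directions, all called, where 63.3% of genes were, 31.6% higher and 31.6% lower. In enterocyte-like cells (32.8% of genes called, 18.4% higher and 14.4% lower) Atf3 (-2.26), Fosb (-2.10), Jun (-2.04), Junb (-1.29), Ier2 (-0.80) and Egr1 (-0.70) were lower and Hspa1a (1.83) and Hspa1b (1.72) higher.

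Goblet-like cells differed for Fos, which was at 1847 to 2064 CPM in deep and 914 to 1373 CPM in shallow cells, higher in 6 of 6 libraries (0.78, SE 0.09, adjusted p = 5.39e-11), where 36% of genes were called, 18.9% higher and 17.2% lower. Jun (-0.82), Junb (-0.53), Atf3 (-0.38) and Fosb (-0.33) were lower in the same cells. In Paneth-like cells (18.9% of genes called, 13.2% higher and 5.71% lower) several directions hung on the scaling. TMM factors gave 7 immediate early members higher, from 0.78 for Ier2 to 2.03 for Egr2, while library sizes alone gave Fosb higher (0.52) and Jun (-0.53), Ier2 (-0.55), Junb (-0.92) and Hspa1a (-2.19) lower, and moved the median of all genes from 0.09 to -1.20.

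**Figure D3:**
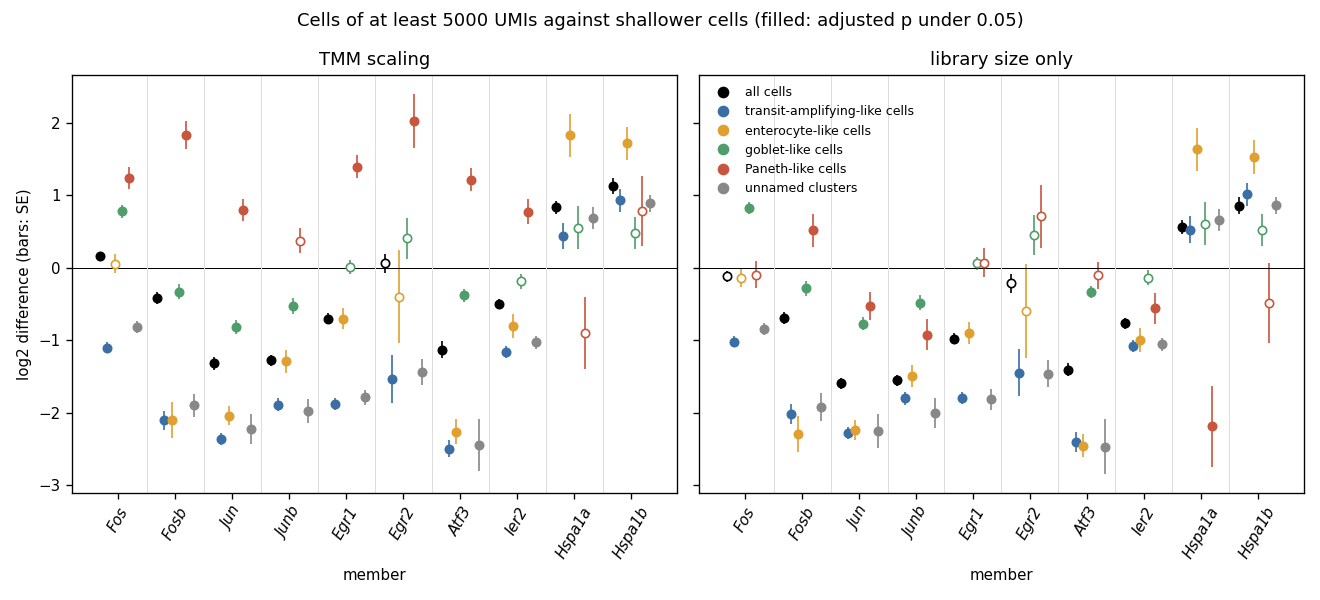
Log2 difference of each member between cells of at least 5000 UMIs and shallower cells, over all cells and within 5 sets of clusters, with TMM factors (left) and library sizes alone (right); bars are SE and filled points have an adjusted p under 0.05. Jun, Junb and Atf3 lie below 0 and Hspa1a and Hspa1b above 0 in every set except Paneth-like cells, where some points change side with the scaling.

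Mitochondrial share was compared in the same way, cells of 10% to 20% (high share) against cells under 10% (low share), with mitochondrial genes left out of the counts. Of 16279 genes 45% were called, 23.3% higher and 21.7% lower with high share, and of the members 2 were higher and 6 lower. Fosb had 112, 147 and 130 CPM in low-share and 46.8, 115 and 70.4 CPM in high-share cells of Fpr2f/f, and 192, 156 and 160 CPM against 50.7, 65.4 and 32.9 CPM in Fpr2VKO. It was lower with high share in all 6 libraries (log2 difference -1.85, SE 0.35, adjusted p = 0.00642), as were Egr2 (-1.70) and Fos (-1.23). Atf3 (-1.24) and Egr1 (-1.04) were lower in 5 of 6 libraries, with Fpr2f/f replicate 2 the other way, and Ier2 (-0.67) in 4 of 6. Hspa1b had 18.1 to 54.5 CPM in low-share and 42.8 to 97.7 CPM in high-share cells and was higher in all 6 libraries (0.62, SE 0.12, adjusted p = 0.00211), as was Hspa1a (0.71).

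Library sizes alone moved the median of all genes from 0.05 to 0.58 and the calls from 3789 higher and 3533 lower to 10311 and 1690. Under it Fosb (-1.32), Egr2 (-1.16), Atf3 (-0.71), Fos (-0.70), Egr1 (-0.51), Hspa1a (1.26) and Hspa1b (1.17) were still called, and Ier2 was not (-0.13). Jun and Junb passed under neither scaling. Without Fpr2VKO replicate 1, and likewise without Fpr2VKO replicate 2, Atf3, Egr1 and Ier2 lost their call and 5 members were left. The share of all genes called in these fits is not given here, so that count is not read as a result about the members. The directions over all cells also hung on the limits. With cells of 20% to 40% set against cells of at most 20%, where 70.4% of genes were called, Junb (0.62), Jun (0.57), Ier2 (0.21), Atf3 (0.20) and Egr1 (0.16) were called higher with high share, each by CPM in 6 of 6 libraries, while Fos (-0.39), Egr2 (-0.37) and Fosb (-0.27) were called lower and Hspa1a (0.10) and Hspa1b (-0.11) were not called. By CPM, however, Fos and Egr2 were higher with high share in 4 of 6 libraries, Fosb and Hspa1b in 5 of 6 and Hspa1a in 6 of 6. The lower values of Fos, Egr2 and Fosb turned direction with library sizes alone. Paneth-like cells gave 16.8% to 62.1% of the UMIs of low-share and 0.663% to 1.78% of high-share cells over the 6 libraries, and their part in the result over all cells was not tested.

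Within transit-amplifying-like cells the immediate early members had the opposite direction, while Hspa1a and Hspa1b had the same one as over all cells. There 9 members were called higher with high share, from 0.41 for Hspa1b to 1.46 for Atf3, where 10.1% of genes were called, 4.45% higher and 5.65% lower, and the same 9 passed with library sizes alone. Atf3 had 21.6 to 57.7 CPM in low-share and 70.8 to 144 CPM in high-share cells of that class, with no overlap, and Hspa1a (0.42, adjusted p = 0.075) was the member that did not pass. As for depth, the shares of this class with a UMI lay below the higher free RNA background. In the unnamed clusters (8.56% of genes called, 4.76% higher and 3.8% lower) Atf3 (0.69), Junb (0.56) and Fosb (0.49) were higher. In goblet-like cells (31.4% of genes called, 15% higher and 16.4% lower) Fos was at 2253 to 2914 CPM in low-share and 996 to 1898 CPM in high-share cells, lower in 6 of 6 libraries (-1.01, SE 0.17, adjusted p = 0.0075). Egr2 (-0.54) and Hspa1b (-0.42) were also lower in goblet-like cells, but with library sizes alone only Fos passed (-0.86).

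Paneth-like cells again depended on the scaling, with 9 members lower by TMM factors (26.6% of genes called, 12.1% higher and 14.5% lower) and Jun (0.77), Junb (0.84), Ier2 (0.73), Fos (0.44) and Hspa1a (1.63) higher by library sizes alone, which moved the median of all genes from 0.04 to 1.52. Among cells of at least 5000 UMIs all 10 members were called, with the directions found over all cells (49% of genes called, 25.8% higher and 23.2% lower). Among cells under 5000 UMIs, Jun alone was called, as higher (0.41, adjusted p = 0.0488), where 13.2% of genes were, 5.35% higher and 7.81% lower.

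**Figure D4:**
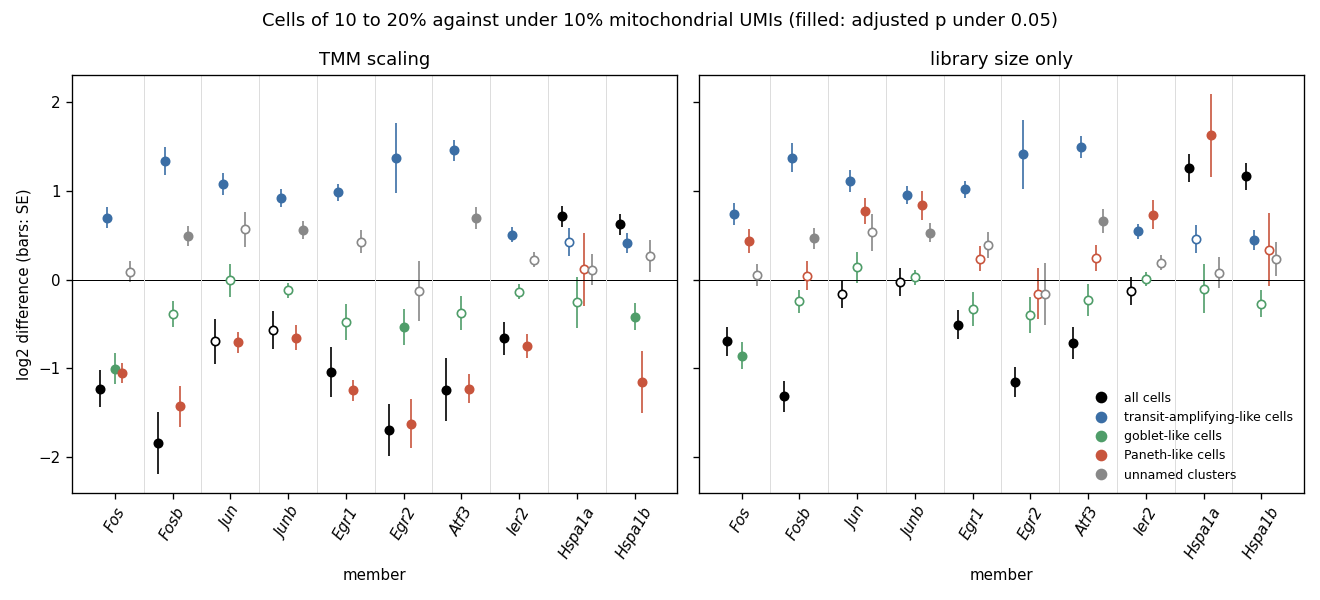
Log2 difference of each member between cells of 10% to 20% and cells under 10% mitochondrial UMIs, over all cells and within 4 sets of clusters, with TMM factors (left) and library sizes alone (right); bars are SE and filled points have an adjusted p under 0.05. All members of transit-amplifying-like cells lie above 0 in both panels, while over all cells the immediate early members lie below 0. Some Paneth-like points change side with the scaling.

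The effect of mitochondrial share differed between the groups for Junb and Ier2, where 1.12% of genes did so. Junb had 130, 151 and 152 CPM in low-share and 137, 243 and 160 CPM in high-share cells of Fpr2f/f, and 255, 137 and 146 CPM against 186, 116 and 117 CPM in Fpr2VKO. It was higher with high share in the 3 Fpr2f/f libraries and lower in the 3 Fpr2VKO libraries, and the log2 interaction was -1.01 (SE 0.16, adjusted p = 0.0227). Ier2 gave -0.87 (SE 0.14, adjusted p = 0.0227). Neither passed without Fpr2f/f replicate 1 (adjusted p = 0.125 for both), Ier2 did not without Fpr2f/f replicate 2 (adjusted p = 0.0915) and Junb did not without Fpr2VKO replicate 1 (adjusted p = 0.0516). No member's interaction passed within transit-amplifying-, Paneth- or goblet-like cells or the unnamed clusters, or among cells of at least or under 5000 UMIs. With library sizes alone, which moved the median interaction of all genes from 0.00 to 0.38, 8 members passed, Junb among them (-0.62) and Ier2 not (-0.48). The share of all genes that passed under this scaling is not given here, so the count is not read as a result about the members. Stem-like cells gave 12.8% to 16.0% of the UMIs of high-share cells in Fpr2VKO and 4.23% to 5.97% in Fpr2f/f, and that difference was not tested as a part of the interaction.

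**Figure D5:**
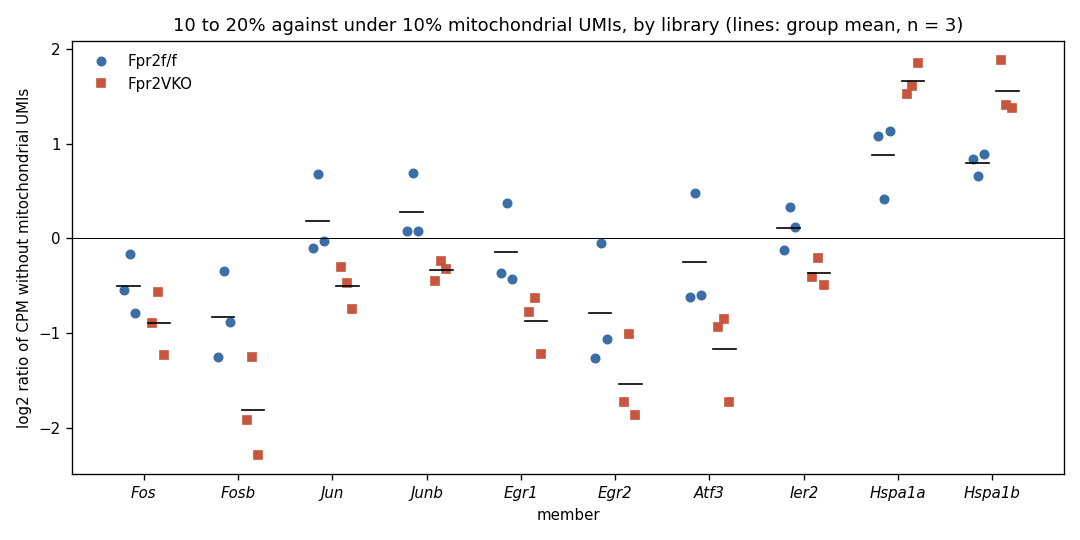
Log2 ratio of CPM without mitochondrial UMIs between high-share and low-share cells, for each member and library; circles are Fpr2f/f, squares Fpr2VKO and lines group means (n = 3). Junb lies above 0 in Fpr2f/f (0.07 to 0.69) and below 0 in Fpr2VKO (-0.45 to -0.24), on library sizes alone.

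Free RNA held the members in other proportions than cells. Of 18104 genes 74.5% were called, 39.7% higher and 34.8% lower in free RNA, and of the members 6 were higher and 1 lower. Junb had 161, 218 and 168 CPM in free RNA and 119, 175 and 140 CPM in cells of Fpr2f/f, and 194, 144 and 136 CPM against 182, 111 and 112 CPM in Fpr2VKO. It was higher in free RNA in every library (log2 difference 0.70, SE 0.06, adjusted p = 5.6e-11), and Hspa1a (0.78) and Ier2 (0.62) were called higher as well. Fos had 267 to 355 CPM in free RNA and 479 to 732 CPM in cells, with no overlap (-0.46, SE 0.07, adjusted p = 7.37e-07), but with mitochondrial UMIs left out these became 514 to 742 and 541 to 819 CPM, which overlap, and library sizes alone then gave -0.09, not called. With mitochondrial UMIs counted, library sizes alone gave 0.29 for Junb, 0.21 for Ier2, 0.37 for Hspa1a and -0.87 for Fos, all called. They turned Jun from 0.30 to -0.11, Egr1 from 0.19 to -0.22 and Atf3 from 0.18 to -0.23. They also moved the median of all genes from 0.07 to -0.34 and the calls from 7180 higher and 6303 lower to 4473 and 9460. By CPM without mitochondrial UMIs, Jun, Egr1 and Atf3 were higher in free RNA in 6 of 6 libraries, and Fos was lower in 5 of 6. The ratios of free RNA to cells were 1.41 to 1.967 for Jun, 1.297 to 1.724 for Egr1 and 1.353 to 1.701 for Atf3. With mitochondrial genes left out, library sizes alone gave a median of all genes of 0.51. No member's difference varied with the group (edgeR called 0 of 18104 genes, 0%, and 963 had an unadjusted p under 0.05).

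UMIs of the members were unevenly spread over cells. With cells thinned to 5000 UMIs, the richest 10% of cells held 29.9% to 44.2% of the UMIs of the 8 immediate early members per library, and 25.1% to 29.2% within goblet-like against 34.0% to 49.0% within stem-like cells. For Hspa1a and Hspa1b the richest 10% held 67.6% to 81.7% over all cells. Mean UMIs per thinned cell differed too, at 18.7 to 23.4 in goblet-like and 3.16 to 11.5 in stem-like cells for the immediate early members. For Hspa1a and Hspa1b the mean was 0.24 to 0.519 over all cells. The part of the mean in these shares was not tested. Thinning to 5000 UMIs left out 5802 Fpr2f/f and 2880 Fpr2VKO cells. Hspa1a and Hspa1b occurred in the same cell 2.60 to 3.87 times as often as the product of their shares, Jun and Atf3 1.27 to 1.76 times, and Fos and Hspa1b 1.15 to 1.34 times. For Jun and Atf3 that ratio was 1.48 to 2.08 in transit-amplifying-like and 1.00 to 1.17 in Paneth-like cells. These ratios are given with no test, since the cells of a library share its depth and free RNA.

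Over the 54 sums of library and class, the genes most alike to the summed immediate early members, by Pearson's r of log2(CPM + 1) among 6559 genes compared, were Trib1 (0.93), Eif2ak3 (0.88), Dusp1 (0.86), Errfi1 (0.84) and Klf6 (0.84). For the summed Hspa1a and Hspa1b they were Ap1m2 (0.86), Btnl4 (0.85), Sema4b (0.85), Pycrl (0.84) and Tmem54 (0.84). The sums share libraries and classes, and these values are a description.

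Related genes were counted from a list of 39 further immediate early genes and a list of 23 further heat shock and chaperone genes. Between the groups edgeR called 0 of 37 and 0 of 21 tested, where it called 0.0177% of all genes. Of these lists 4 and 1 genes had an unadjusted p under 0.05, where 1430 of 16917 genes did. Their medians were -0.13 and -0.03 (all genes 0.00). In deep cells, where 32.7% of all genes were higher and 30.6% lower, 1 of 37 immediate early genes was higher and 25 lower (median -0.54, all genes -0.06). Plk2 (-1.85), the MAP kinase phosphatase gene Dusp5 (-1.72), Maff (-1.45) and the AP-1 gene Fosl1 (-1.31) were lowest. Of 20 chaperone genes 10 were higher and 3 lower (median 0.26). The mitochondrial chaperonin genes Hspe1 (1.32) and Hspd1 (1.01), Cacybp (1.15) and Hspa4l (1.00) were highest. With high mitochondrial share 23.3% of all genes were higher and 21.7% lower. There 3 of 37 immediate early genes were higher and 22 lower (median -0.61, all genes 0.05), led by Egr3 (-2.09) and Nr4a1 (-2.06). Of 21 chaperone genes 6 were higher and 3 lower (median 0.08), led by the small heat shock gene Hspb8 (-3.83). In free RNA 39.7% of all genes were higher and 34.8% lower. There 20 of 37 immediate early genes were higher and 5 lower (median 0.18, all genes 0.07), led by Ier5 (1.23). Of 20 chaperone genes 5 were higher and 12 lower (median -0.19), with Cacybp (-1.20) and Hspa4l (-1.19) opposite to Hspa1a and Hspb1 (1.17) on its side. These counts were made with TMM factors, and the directions of some members above turned with library sizes alone.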

How the data were processed

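Per the labels and the study's methods, libraries were made on the MobiNova-100 platform, and the authors deposited raw UMI counts per gene and barcode made with MobiVision on mm10. Seurat 4.0.0 is listed in the submitters' processing notes, and its filters are not in the deposited counts. The members, gene lists and comparisons were chosen with earlier results of these data known. Barcodes with at least 1000 UMIs, at least 500 genes and at most 20% mitochondrial UMIs were kept, with suspected doublets (428, by likeness to simulated pairs) removed only as an alternative. Cells were clustered on 2000 variable genes and 30 components (leidenalg 0.10.2), without the members and both stress lists. With 3 libraries against 3, the exact permutation p cannot go below 0.1. UMI counts were summed per library, or per library and class with at least 20 cells, and tested with edgeR 4.0.16 (TMM, filterByExpr, quasi-likelihood, two-sided, Benjamini-Hochberg over all genes, called at an adjusted p under 0.05), with library as a term within libraries. DESeq2 1.42.0 was an alternative. Named genes were the 10 members, and up to 4 called genes with the largest change from each list. Replicate numbers were not used to pair the libraries in the main fits, and a replicate block was an alternative. SD is between libraries. SE was derived from the log2 difference and the F statistic of the edgeR test, whose model holds both counting error and the spread between libraries. In counts simulated from all cells (16894 genes), 63% of changes of 1 on the log2 scale and 96.9% of changes of 2 were recovered.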

Additional observations from a re-analysis of the deposited data

Results flagged for a closer look

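The effect of mitochondrial share (cells of 10% to 20% against cells under 10%) differed between Fpr2f/f and Fpr2VKO libraries by the test of the interaction for 2 members. The log2 difference between the groups' effects was -0.875 for Ier2 and -1.014 for Junb (edgeR, adjusted p = 0.0227 for both). By CPM, Junb was higher with high share in all 3 Fpr2f/f and lower in all 3 Fpr2VKO libraries, and the difference of the mean log2 ratios was -0.6194, which was not tested by itself. Neither gene passed without Fpr2f/f replicate 1, or within any marker class compared.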

How the results depend on the processing

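Values here are log2 differences, or counts of members called, for results that changed direction or whose count moved. Fpr2VKO is set against Fpr2f/f (genotype), deep against shallow cells (depth), high against low share (mitochondrial share) and free RNA against cells. Of 1180 recomputed values, 888 were counted as unchanged. For log2 differences this meant the same direction and side of the threshold. For counts it meant an equal or similar number of members called, and for shares of thinned cells the same direction alone. Settings with library sizes alone, within classes, or with 5000 UMIs as a limit, and the free RNA share without mitochondrial UMIs, were chosen after seeing the data. So were the depth and free RNA fits with mitochondrial genes left out. The cause of each change was not tested. Where a count of members called stands without the share of all genes called in the same setting, it is not a result about the members. Without a filter on low counts, the values were genotype (1 member called), genotype in Paneth-like cells (3 members called), genotype in unnamed clusters (1 member called), mitochondrial share (5 members called), its interaction with group (4 members called), free RNA (Fosb -0.17, Hspa1b -0.12). With the mitochondrial limit at 10%, the values were genotype (1 member called, Fosb 0.70, Jun 0.57, Junb 0.60, Egr1 0.71, Atf3 0.64). With clusters made without alignment of the libraries, the values were genotype in Paneth-like cells (2 members called). Within Paneth-like cells, with library sizes alone, the values were depth (5 members called, Fos -0.092, Fosb 0.52, Egr1 0.072, Hspa1a -2.19, Hspa1b -0.48), mitochondrial share (5 members called, Fos 0.44, Fosb 0.041, Jun 0.77, Junb 0.84, Egr1 0.24, Atf3 0.24, Ier2 0.73). Within goblet-like cells, the values were depth (5 members called, Egr1 0.017), mitochondrial share (3 members called, Hspa1a -0.26, Hspa1b -0.42), its interaction with group (0 members called). Within goblet-like cells, with library sizes alone, the values were depth (5 members called, Egr1 0.063), mitochondrial share (1 member called, Jun 0.14, Junb 0.025, Ier2 0.0081, Hspa1a -0.11, Hspa1b -0.27). Within unnamed clusters, the values were mitochondrial share (3 members called, Fos 0.089, Fosb 0.49, Jun 0.57, Junb 0.56, Egr1 0.43, Atf3 0.69, Ier2 0.22), its interaction with group (0 members called), depth (Fos -0.81, Egr2 -1.44). Within unnamed clusters, with library sizes alone, the values were mitochondrial share (3 members called, Fos 0.054, Fosb 0.46, Jun 0.53, Junb 0.53, Egr1 0.39, Atf3 0.66, Ier2 0.19), depth (Fos -0.84, Egr2 -1.46). In cells under 5000 UMIs, the values were mitochondrial share (1 member called, Fos 0.011, Fosb 0.10, Jun 0.41, Junb 0.21, Egr1 0.22, Egr2 0.17, Atf3 0.48, Ier2 0.24), its interaction with group (0 members called, Junb 0.12). In cells under 5000 UMIs, with library sizes alone, the values were mitochondrial share (0 members called, Fosb 0.048, Jun 0.36, Junb 0.17, Egr1 0.17, Egr2 0.12, Atf3 0.43, Ier2 0.19). With library sizes alone, the values were its interaction with group (8 members called), depth (Fos -0.12, Egr2 -0.21), free RNA (Fosb -0.40, Jun -0.11, Egr1 -0.22, Atf3 -0.23, Hspa1b -0.36). With DESeq2, the values were its interaction with group (5 members called), genotype (Egr1 0.00034), free RNA (Fosb -0.085, Hspa1b -0.046). With the other cut points (10000 UMIs, 20% mitochondrial, 50 UMIs for free RNA), the values were its interaction with group (0 members called), mitochondrial share (Jun 0.57, Junb 0.62, Egr1 0.16, Atf3 0.20, Ier2 0.21, Hspa1b -0.11), free RNA (Fosb -0.022, Hspa1b -0.019). Within transit-amplifying-like cells, the values were its interaction with group (0 members called), depth (Fos -1.10, Egr2 -1.53), mitochondrial share (Fos 0.70, Fosb 1.34, Jun 1.08, Junb 0.92, Egr1 0.98, Egr2 1.38, Atf3 1.46, Ier2 0.51). Within Paneth-like cells, the values were its interaction with group (0 members called), depth (Fosb 1.83, Jun 0.80, Junb 0.38, Egr1 1.40, Atf3 1.22, Ier2 0.78, Hspa1a -0.90), mitochondrial share (Hspa1b -1.16). In cells of at least 5000 UMIs, the values were its interaction with group (0 members called). With at least 2500 UMIs per cell, the values were genotype (Egr1 0.012). Without suspected doublets, the values were genotype (Egr1 0.0023). With the mitochondrial limit at 40%, the values were genotype (Ier2 -0.022). With mitochondrial genes left out, with library sizes alone, the values were depth (Fos -0.17, Egr2 -0.27), free RNA (Egr2 0.25). With the other cut points, with library sizes alone, the values were depth (Fos -0.12, Egr2 -0.19), mitochondrial share (Fos 0.035, Fosb 0.16, Jun 1.00, Junb 1.05, Egr1 0.59, Egr2 0.063, Atf3 0.63, Ier2 0.64), free RNA (Fosb -0.40, Jun -0.081, Egr1 -0.19, Atf3 -0.20, Hspa1b -0.40). Within transit-amplifying-like cells, with library sizes alone, the values were depth (Fos -1.02, Egr2 -1.44), mitochondrial share (Fos 0.73, Fosb 1.38, Jun 1.11, Junb 0.95, Egr1 1.02, Egr2 1.41, Atf3 1.5, Ier2 0.54). Within enterocyte-like cells, with library sizes alone, the values were depth (Fos -0.14, Egr2 -0.60). Within enterocyte-like cells, the values were depth (Egr2 -0.40). With RLE factors, the values were free RNA (Fosb -0.029). With mitochondrial genes left out, the values were free RNA (Fosb -0.032).

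Deviations from the group means correlated at -0.0965, -0.0517 and 0.192 for libraries of the same replicate number, and at -0.152 to 0.173 for other pairs. Whether libraries of the same number share a batch cannot be told from so few pairs, and the main fits used no block. With the replicate block 3 members (Fos, Egr2, Hspa1b) were called in Paneth-like cells in place of 0. Of all genes 0.337% were called there in place of 0.0835%. The count of members stayed 0 over all cells and in the other classes.

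Leaving out 1 library at a time gave 0 to 2 members called in Paneth-like cells, where 0.0103% to 0.412% of all genes were. In goblet-like cells it gave 0 to 1, where 0.105% to 0.715% of all genes were called. It gave 5 to 10 for mitochondrial share and 0 to 2 for its interaction with group. The shares of all genes for these last counts are not given here, so they are not read as results about the members. The log2 difference by genotype ranged for Fosb from -0.35 to 0.19, Jun -0.32 to 0.13, Junb -0.31 to 0.13, Egr1 -0.16 to 0.15, Atf3 -0.46 to 0.18, Ier2 -0.00605 to 0.21 and Hspa1a -0.32 to 0.13. Depth gave Egr2 -0.019 to 0.19 and free RNA Fosb -0.017 to 0.048. Differences in the share of thinned cells, in percentage points, ranged for Fos from -1.598 to 2.203, Ier2 -0.09967 to 0.8133, Hspa1a -0.5668 to 0.0655 and Hspa1b -0.7226 to 0.165.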
